A study of Mus musculus with 2 samples.

Results

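Mir139 (ENSMUSG00000065446.1) is the miRNA gene with the highest mean level over 2 libraries of mouse left cerebral cortex, counting reads with a single place in the genome, although Mirlet7g was higher in 1 of them. It is 1 of the 2202 annotated miRNA genes measured. It was chosen by its sense counts per library, the values that put it first, so its level and its place among the genes are given here as a description, with no test. Small RNA was sequenced from 2 libraries of 1 group: left cerebral cortex of adult mice of the strain B6CASTF1/J, aged 18 to 20 months, with no treatment named. B6CASTF1/J animals are F1 hybrids between C57BL/6J and CAST/EiJ. The labels call the libraries biological replicates 1 and 2, give both the same donor, name the sex female in the dedicated fields and male in the free text, and limit the RNA to fragments under 30 nucleotides. Both libraries carry the same hybrid genome, and neither a young group nor another tissue was used here.

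A miRNA gene is transcribed as part of a longer RNA, often the intron of a host gene, and folds into a hairpin that Drosha and Dicer cut to a short duplex. One strand of the duplex is loaded into an Argonaute protein and finds messenger RNAs by pairing through its seed, the bases near its 5′ end. Mir139 gives miR-139-5p and miR-139-3p, and it lies inside Pde2a, which encodes a phosphodiesterase that hydrolyses cAMP and cGMP, is stimulated by cGMP and is abundant in forebrain neurons. The miR-139 products have been studied most as repressors of growth and migration in tumours.

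The sequences of Mir139 are shown because the reads are assigned to genes by sequence and because the seed defines which other miRNAs could act on the same sites. They come from RefSeq (GRCm38.p6, the build also called mm10), plus strand of chromosome 7, and are written 5′ to 3′. In the hairpin, chr7:101475376-101475443, the capitals mark the 2 mature arms. In the mature sequences the capitals mark the seed, bases 2 to 8.
Mir139 hairpin: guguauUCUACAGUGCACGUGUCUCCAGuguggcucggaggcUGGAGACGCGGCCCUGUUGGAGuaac
miR-139-5p: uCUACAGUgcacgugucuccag
miR-139-3p: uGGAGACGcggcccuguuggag

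The 5p arm spans bases 7 to 28 of the hairpin (101475382 to 101475403) and the 3p arm bases 43 to 64 (101475418 to 101475439). Each arm is 22 nucleotides long, and 14 nucleotides separate them. The predicted fold of the 68-nucleotide hairpin, computed with RNAfold, had 25 base pairs and a free energy of -35.6 kcal/mol, and 19 of the 22 bases of the 5p arm paired with a base of the 3p arm. The median free energy over the 345 expressed miRNA hairpins with a sequence was also -35.6 kcal/mol. Divided by length, the free energy of the Mir139 hairpin was -0.52 kcal/mol per nucleotide, against a median of -0.44 over the 345, of which 51 were lower. The GC content of the hairpin was 58.8%, against a median of 51.8%, and 74 of the 345 were higher. The deposited counts are summed per gene, so how the reads divide between the 2 arms cannot be told from them.

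Neither seed of Mir139 was found in a mature miRNA of another gene in the RefSeq table. Of the 1738 mature sequences in the RefSeq table, 1182 (68.0%) had a seed of a single gene, so such a seed is common. When the last seed base was left out (bases 2 to 7), miR-139-5p still had no relative and miR-139-3p had 1, miR-6397 of Mir6397 on chromosome 4 (108087414 to 108087434). Its sequence is shown with the shared bases 2 to 7 in capitals, next to let-7g-5p of Mirlet7g on chromosome 9 (106178846 to 106178867), the gene next in abundance, with its seed in capitals.
miR-6397: uGGAGACuuucaguggaguga
let-7g-5p: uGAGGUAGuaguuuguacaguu

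Mir6397 had 0 sense counts in both libraries, which allows up to 0.581 CPM (counts per 1000000 sense counts) in replicate 1 and 0.673 in replicate 2. In contrast, the let-7g-5p seed occurred in mature sequences of 13 genes of the table, 11 of them expressed. Mirlet7a-2, an expressed let-7 gene (153.8 CPM in the mean), is not among the 13, so the table may lack mature arms of some genes. Seeds counted as those of a single gene are so only within the table. Mir139 was thus the single source in the table for its full seeds, whereas several genes supply the seed of let-7g-5p.

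The arms of Mir139 shared few bases in a row with other miRNA hairpins, which bears on whether a read can be placed. The longest exact stretch shared with another gene's hairpin was 9 nucleotides for miR-139-5p, with Mir142b, Mir17, Mir191, Mir7082 and Mir770, and 10 nucleotides for miR-139-3p, with Mir7088. Over the 345 expressed genes compared, the median of this longest stretch was 11 nucleotides, 73 genes (21.2%) shared 16 or more, and 44 had a mature sequence identical to that of another gene. Of the 20 most abundant genes 18 had a sequence in the table. Among these, 6 shared 16 nucleotides or more, Mirlet7g and Mirlet7b among them. Mir191, at 9 nucleotides, was the 1 gene with a shorter stretch than Mir139, and Mir127, Mir132, Mir23b, Mir126a and Mir652 had the same 10. The value for Mir23b does not show its likeness to Mir23a, since a mature sequence of Mir23a shares 18 nucleotides with the Mir23b hairpin. Of the 345 expressed genes 32 had a shorter stretch than Mir139, and 89, Mir139 included, had 10 nucleotides, so its value was common in this comparison. The table may lack mature arms of some genes, and a missing arm can make a gene's stretch too short. The median and the numbers of genes sharing 16 or more or an identical mature sequence may thus be too low. The numbers with 10 nucleotides or fewer may be too high. Within the 141767 transcripts of GENCODE M21, the full sequence of either arm was found, on either strand, in the Mir139 transcript itself and in no other. The genome outside these transcripts was not searched, so a single place in the genome was not tested.

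Mir139 lies in an intron of Pde2a (ENSMUSG00000110195.1, chromosome 7, 101421691 to 101512827, mm10), on the same strand and 53.7 kb from the annotated start of that gene. It overlaps no annotated exon of it. Of the 12 annotated transcripts of Pde2a 10 span Mir139, and all 10 resume at the same exon, 5.93 kb beyond the miRNA gene. In Pde2a-201, a protein-coding transcript of 31 exons, the intron lies between exons 2 and 3 and is 29.9 kb long, and Mir139 sits 23.9 kb from its start. The second annotated gene over this interval, Gm45837 (101410886 to 101512819), is also protein-coding, has 1 transcript and holds Mir139 in the intron between its exons 3 and 4. The host transcripts themselves were not measured in these small RNA libraries, so a relation of Mir139 to Pde2a expression was not tested.

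**Figure D1:**
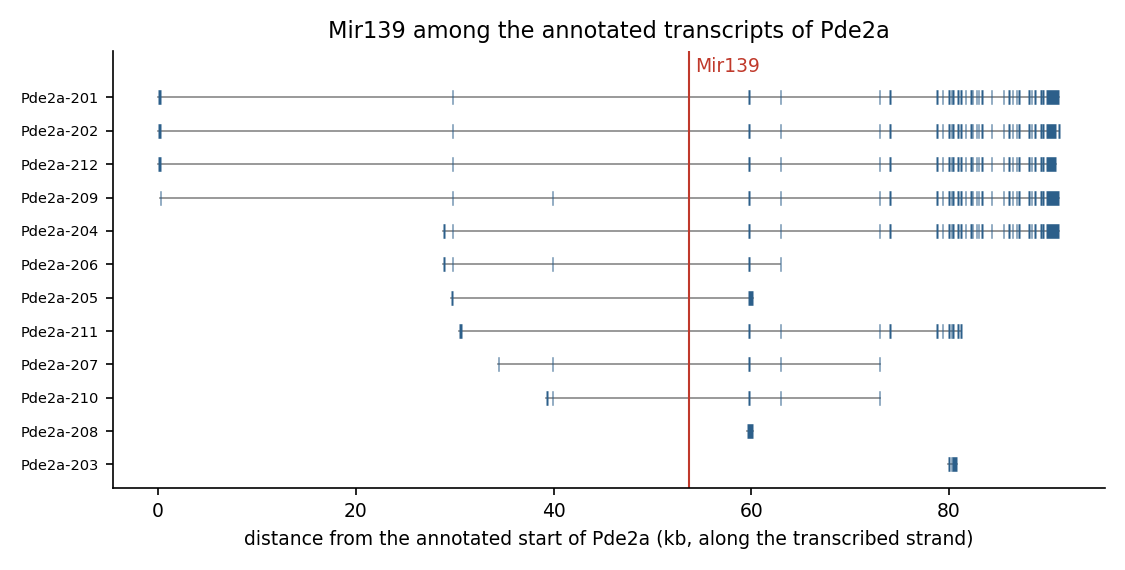
Map of Mir139 (red line) among the 12 annotated transcripts of Pde2a. The x axis is the distance in kb from the annotated start of Pde2a along the transcribed strand, the blue blocks are exons (very short ones are drawn at a minimum width) and the grey lines are introns; 10 transcripts span Mir139, which lies 53.7 kb from the start and 5.93 kb before the next exon.

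Mir139 had 648688 sense counts in replicate 1, of 5166667 over all miRNA genes. In replicate 2 it had 544929 of 4459993. These are levels of 125553 and 122182 CPM of sense counts, with a mean of 123867 ± 2384 CPM (SD, n = 2). The share of Mir139 among sense counts was 12.6% in replicate 1, with an exact 95% interval of 12.5% to 12.6%. For replicate 2 the share was 12.2%, and both bounds of its interval round to 12.2%. The intervals cover counting error only.

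The strand columns gave the same number. Mir139 had 0 antisense counts in both libraries, which allows an antisense level of up to 0.000462% of its sense counts in replicate 1 and 0.000551% in replicate 2. Its unstranded count equalled its sense count in each library, so no read at Mir139 was set aside as ambiguous. Antisense reads of Mir139 were not detectable at this depth.

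Mirlet7g, in an intron of Wdr82 and a member of the let-7 family that is abundant in differentiated tissue, was the gene next in order, with 80193 CPM in the first library and 132256 CPM in the second. Mir139 was thus the highest gene in replicate 1, at 1.57 times Mirlet7g, and rank 2 in replicate 2, at 0.924 times. The means, 123867 ± 2384 and 106225 ± 36814 CPM, did not differ beyond the spread of Mirlet7g, and these data do not settle the order of these genes. Divided by the annotated length of each gene, the mean level was 1822 CPM per base for Mir139 and 1207 CPM per base for Mirlet7g. The RNA was limited to fragments under 30 nucleotides, so counts need not follow annotated length, and this division does not settle the order of these genes.

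Below these stood Mirlet7b at 69401 ± 3262 CPM, and Mir139 was above it in both libraries, by 1.78 times in the mean. Mirlet7i (50272 ± 12115 CPM), the imprinted Mir127 (49801 ± 14995 CPM), the activity-induced Mir132 (38067 ± 6199 CPM) and Mir744 (37064 ± 2669 CPM) followed. The next were Mirlet7e (30020 ± 3984 CPM), Mir23b (23713 ± 3368 CPM) and Mirlet7d (20534 ± 3381 CPM). A mature sequence of Mir23a shares 18 nucleotides with the hairpin of Mir23b, and these let-7 genes share stretches of 14 to 17 with other genes, so their counts are uncertain. Of the 9 neighbouring pairs among these 10 genes, 5 had ranges over the libraries that overlapped. The 11 genes with a let-7 symbol held 23.9% of replicate 1 and 32.5% of replicate 2, which was 1.91 and 2.66 times the counts of Mir139. They include Mirlet7a-2 and are not the same set as the 11 expressed genes with the let-7g-5p seed.

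**Figure D2:**
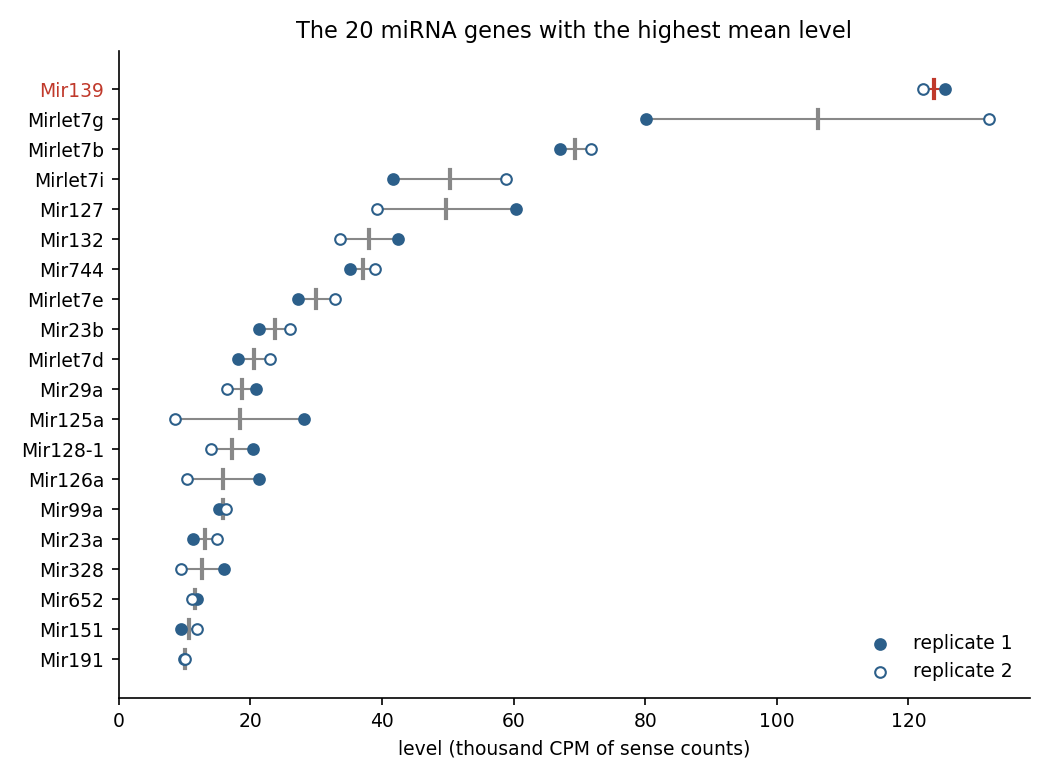
Level of the 20 miRNA genes with the highest mean, in CPM of sense counts, divided by 1000 on the axis, with replicate 1 as filled points, replicate 2 as open points, a bar at the mean and a line joining the libraries. Mir139 lies at 125553 and 122182 CPM with its points close together, while Mirlet7g spans 80193 to 132256 CPM and overlaps it.

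Against the typical miRNA gene the distance was large. Taking genes at 2 CPM or above in each library as expressed, the median of the 409 such genes was 88.9 CPM, and Mir139 stood 1393 times above it. The 359 lowest of the 409 expressed genes together held fewer mean CPM than Mir139 alone. A further 1431 of the 2202 genes had no sense count in either library.

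How large a share Mir139 appears to hold depended on which reads were counted in the total. Of all 14842903 deposited reads in replicate 1, including unmapped and unassigned ones, Mir139 made up 4.37%, and of 12785704 in replicate 2 it made up 4.26%. With the reads that have several places in the genome added to the sense total, the shares were 5.71% and 5.25%. These reads numbered 6203588 in replicate 1 and 5928954 in replicate 2, 9.56 and 10.9 times the count of Mir139. They are not divided by gene, so the rank of Mir139 holds among reads with a single place, and a miRNA with several identical copies could lie above it. With the let-7 genes left out of the total, Mir139 held 16.5% and 18.1%.

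**Figure D3:**
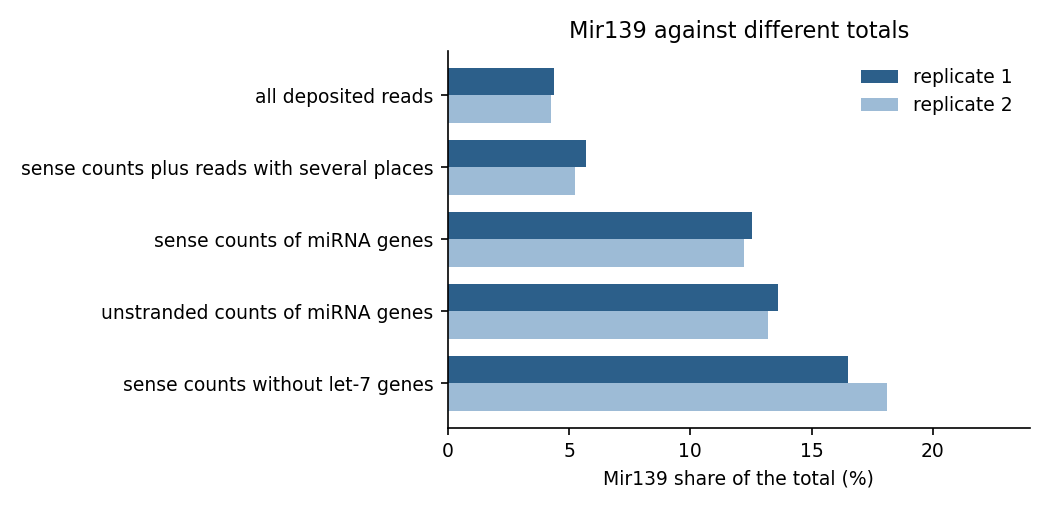
Share of Mir139 in each library, in percent, of 5 totals, with replicate 1 in dark and replicate 2 in light bars. The share runs from 4.26% of all deposited reads to 18.1% of sense counts without the let-7 genes, and only with the let-7 genes left out is the bar of replicate 2 the longer one.

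Mir139 had nearly equal levels in both libraries. The log2 ratio of replicate 2 to replicate 1 was -0.04 on sense totals (95% counting interval -0.04 to -0.03), 0.09 with edgeR's TMM scaling and 0.16 with DESeq2's size factors, so its sign depends on the scaling and no direction is drawn. The median log2 ratio of expressed genes was -0.17 on sense totals, and Mir139 lay 0.13 above that median, a gap that scaling cannot change. Among the 409 expressed genes 102 differed by over 2-fold between the libraries (24.9%), and Mir139 did not. Of these, 22 were higher in replicate 2 (5.38%) and 80 in replicate 1 (19.6%). With TMM the numbers were 33 and 66, and with DESeq2's size factors 38 and 59.

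The SD of Mir139 was 1.92% of its mean on sense totals, against a median of 16.4% over the 20 highest genes. With TMM it was 4.43% against 20.0%, and with DESeq2's size factors 8.01% against 21.8%. On sense totals 15 of the 409 expressed genes had a ratio nearer to equal, as did 1 of the 20 highest, Mir191. With TMM 33 of the 409 and 1 of the 20 were nearer to equal, and with DESeq2's size factors 57 and 3. The median absolute log2 ratio of expressed genes was 0.56 on sense totals. High counts make counting error small for all of the 20 genes, yet Mir125a, with 145734 counts in replicate 1 and 38359 in replicate 2, differed by a log2 ratio of -1.71 on sense totals. With 1 library on each side no test of these differences was made, and the closeness of 2 values may be chance.

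**Figure D4:**
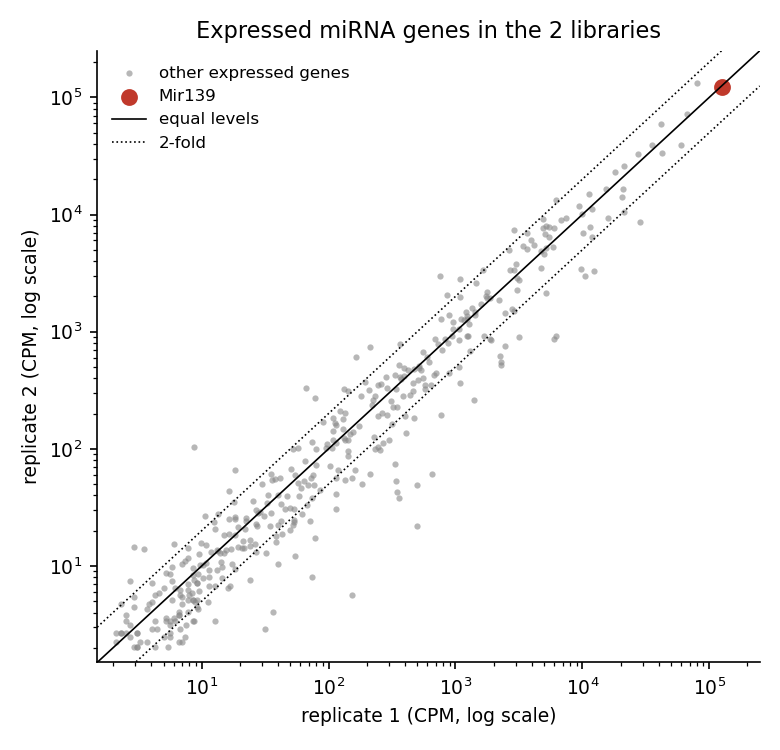
Level of the 409 expressed miRNA genes in replicate 1 (x axis) and replicate 2 (y axis), in CPM on log scales, with the line of equal levels and dotted lines at 2-fold. Mir139 (red) lies at the upper end close to the line of equal levels, and 102 genes lie outside the dotted lines.

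The genes whose levels moved most like Mir139 between the libraries were sought among the 20 highest, by the distance between their log2 ratios over the 2 libraries. Mir652, in an intron of Tmem164 on chromosome X, was nearest, with 11871 and 11210 CPM in replicates 1 and 2 and a distance of 0.04. Mir191 followed with 9894 and 10123 CPM, a distance of 0.07. Mirlet7b was at 67094 and 71708 CPM (distance 0.14), Mir99a at 15261 and 16354 CPM (0.14) and Mir744 at 35177 and 38951 CPM (0.19). A likeness over 2 libraries says only that these genes, too, were nearly level.

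Mir139 held most of the sense counts of its chromosome. Chromosome 7 holds 153 of the annotated miRNA genes, of which 25 were expressed and 96 had no sense count in either library. Over all 2202 miRNA genes, 409 were expressed and 1431 had no sense count in either library. Of the chromosome's sense counts Mir139 held 87.3% in replicate 1 and 89.4% in replicate 2. The next gene on the chromosome, Mir330 at 9637 CPM in the mean, reached 7.78% of its level.

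Within 1 Mb on either side lay 2 other miRNA genes. Mir3102, on the opposite strand 592967 bases towards lower coordinates (100882306 to 100882409), was expressed, with 707.6 and 443.1 CPM in replicates 1 and 2. Gm22655, inside Anapc15 and 405741 bases towards higher coordinates (101881184 to 101881279), had 0 sense counts in both libraries. The nearest expressed gene on that side, Mir7059 in an intron of Cln3, lay 25104031 bases away and had 34 counts in replicate 1 and 18 in replicate 2. No annotated miRNA gene close by thus shared the high level of Mir139.

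As an intronic miRNA Mir139 was the highest of its kind in the mean. Of all miRNA genes, 741 lay wholly inside a protein-coding gene on the same strand and overlapped no exon of any of its annotated transcripts. These are called intronic here, and 174 of them (23.5%) were expressed, against 235 of the other 1461 (16.1%). The others may include miRNA genes that lie in an intron of some transcripts and overlap an exon of others. The comparison thus does not set intronic against non-intronic genes. The expressed intronic genes had a median of 43.1 CPM, and the other expressed genes 146.4 CPM. Intronic genes held 47.7% ± 2.91 of sense counts (SD, n = 2), and Mir139 alone made up 27.5% of the intronic counts in replicate 1 and 24.5% in replicate 2. After Mir139 and Mirlet7g came Mir744, in Map2k4, a kinase of the JNK pathway, Mirlet7e in Spaca6 and Mir23b in 2010111I01Rik.

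**Figure D5:**
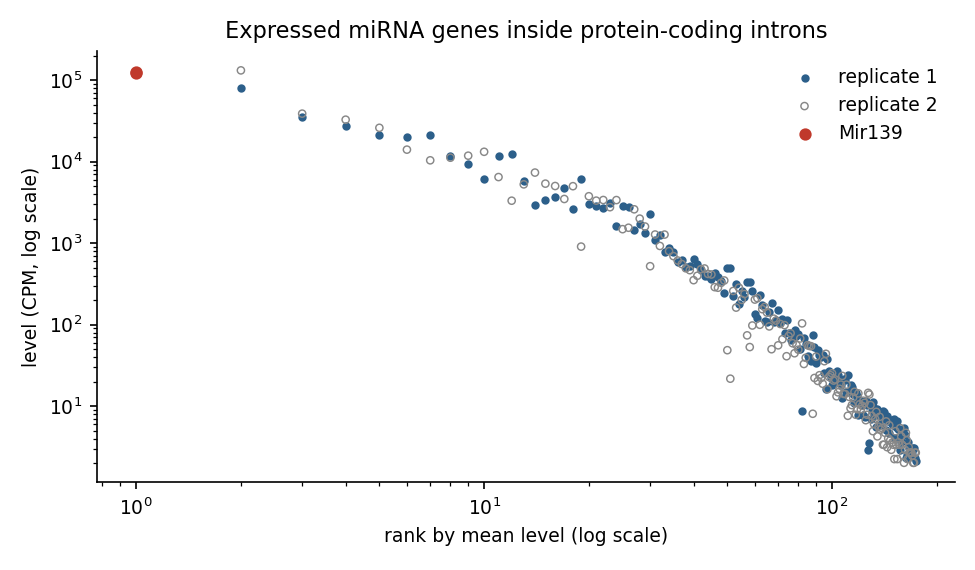
Level of the 174 expressed miRNA genes inside protein-coding introns, in CPM on a log scale, against their rank by mean level on a log scale, with replicate 1 as filled and replicate 2 as open points. Mir139 (red, both libraries) takes rank 1 above a median of 43.1 CPM.

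Because Pde2a acts on cyclic nucleotides, miRNA genes were also looked up in the introns of 68 genes of cyclic nucleotide signalling (phosphodiesterases, cyclases, kinases, exchange factors, channels and nitric oxide synthases). Of these host genes 3 held a miRNA gene on the same strand that overlapped no exon of any annotated transcript of the host. Of the 4 miRNA genes in them 2 were expressed, against 18.6% of all miRNA genes and 23.5% of those in protein-coding introns. Since Mir139 was chosen for its level and the list for its host, 1 of the 2, Mir139 itself, was known beforehand to be expressed. The other was Mir582 in Pde4d, a cAMP-specific phosphodiesterase, with 65 counts (12.6 CPM) in replicate 1 and 105 (23.5 CPM) in replicate 2. Mir1904, also in Pde4d, and Gm44413, in Pde1c, had 0 sense counts in both libraries. The median over the 4, Mir139 included, was 9.03 CPM. Mir139 was chosen as the highest gene, so its place above the others in such host genes was known beforehand.

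Mir139 was set beside miRNAs linked to some of the cell types of cortex tissue, and beside miRNAs of red cells, liver and muscle. Astrocytes had no list. Of 15 neuron-linked genes 12 were expressed, with a sum of 40630 and 33780 CPM in replicates 1 and 2, and Mir139 exceeded that sum 3.09 and 3.62 times. Most of these 15 genes have a mature sequence identical to that of another gene. Reads with several places in the genome are left out, so the sum may be too low and the ratios too high. The highest of the 15 genes, Mir128-1, had 20358 and 14077 CPM, an uncertain level since Mir128-2 has an identical mature sequence. The neuronal Mir124a-1 had 21 and 6 counts, and Mir124a-2 and Mir124a-3 had 1 or 2 each; reads with several places in the genome are not part of these counts. Mir126a of the endothelium had 21256 and 10411 CPM. Oligodendrocyte genes (2 of 3 expressed) summed to 3952 and 3864 CPM, microglial and leukocyte genes (5 of 5) to 1937 and 2002 CPM and mural genes (2 of 2) to 5077 and 9896 CPM. Red cell genes (3 of 3) summed to 122.1 and 71.5 CPM, Mir122 of the liver had 54.6 and 60.1 CPM, and muscle genes (1 of 5 expressed, 4 with no count) summed to 18.2 and 65.5 CPM. In all these lists a low or missing count holds only for reads with a single place in the genome. Between the libraries Mir139 differed by 1.03-fold on sense totals. On the same scale the list sums differed by 1.02-fold for oligodendrocytes, 1.03-fold for microglia and leukocytes, 1.10-fold for liver and 1.20-fold for neurons. The red cell sum differed by 1.71-fold, the mural sum by 1.95-fold, the endothelial gene by 2.04-fold and the muscle sum by 3.60-fold. Which cells gave the reads of Mir139 was not tested. In such bulk tissue fewer cells of a type and less RNA per cell cannot be told apart.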

How the data were processed

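Small RNA libraries of 2 cortex samples were analysed from the deposited read counts, 1 table per library with 2202 miRNA genes, 4 lines of reads that name no gene and 3 count columns (unstranded and each strand). The authors used build mm10 and GENCODE M21, as the deposited file descriptions state; the aligner, the counter and the filters were not given in the sources used here. The stranded column with the larger total was taken as sense. The lines that name no gene held 65.2% and 65.1% of reads and were left out of totals. CPM is the sense count per 1000000 sense counts; a gene at 2 CPM or above in each library counts as expressed. Ratios add 0.5 to each count. A count of 0 is read as up to 3 counts, and intervals are exact (Clopper-Pearson). Scaling alternatives used edgeR 4.0.16 (TMM) and DESeq2 1.42.0 (size factors), tested on simulated data; hairpins were folded with RNAfold 2.7.2. RefSeq sequences were matched by symbol, with 1018 symbols matched; stretches were compared for the 954 genes with hairpin and mature sequences, on the given strand. Mir139 and all lists were chosen with earlier results of these data known. Genes were named by rule: the 10 highest, the 5 among the 20 highest with the nearest log2 ratio, chromosome neighbours, seed relatives, the 5 highest intronic genes and expressed genes in cyclic nucleotide hosts. Outside that rule, members of the marker lists, the unexpressed Mir1904 and Gm44413, Mir125a, Mir330, Mirlet7a-2 and genes sharing a stretch were named after their values were seen. Reads of the CAST/EiJ parent that differ from the reference may have been lost, which was not tested. The labels call the libraries biological replicates but give both the same donor, so whether they came from separate animals is not clear and their spread may be technical.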

Additional observations from a re-analysis of the deposited data

How the results depend on the processing

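No paired analysis was possible because there is 1 group. The mean level of 123867 CPM became 134077 with unstranded counts, 43162 with all deposited reads as the total, 54752 with reads of several places added and 173061 without let-7 genes; leaving out a library gave 122182 to 125553. The log2 ratio of replicate 2 to 1 (-0.04) was -0.047 with unstranded counts, 0.091 with TMM, 0.16 with DESeq2's size factors, -0.12 with reads of several places in the total and 0.13 without let-7 genes; with all deposited reads it stayed within the counting interval. Mir139 had rank 1 with unstranded counts, the geometric mean, both scalings and, chosen after seeing the data, levels per annotated base, and rank 1 to 2 when a library was left out. Its level over the next gene (1.17) ran from 0.924 without replicate 1 to 1.57 without replicate 2, and was 1.51 per annotated base. The scalings multiply each library by 1 factor, so they cannot change the order of genes within a library. The unstranded counts of Mir139 and Mirlet7g equalled their sense counts. These settings thus add little to the main rank. The 102 of 409 genes past 2-fold (24.9%) became 340 of 771 (44.1%) when any count sufficed, 75 of 300 (25%) at 10 CPM, 92 of 387 (23.8%) with unstranded counts, and 99 and 97 of 409 with TMM and DESeq2's size factors. The percentile among intronic genes (99.4) was 99.9 over every annotated one, and 98.9 to 99.5 when a library was left out. The ratio and the count past 2-fold need both libraries, so no library could be left out there. Depth limits counts of 0 to under 0.581 and 0.673 CPM; for Mir139 itself the libraries differed on sense totals by more than counting error.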
